A study of Mus musculus with 12 samples.

Results

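The SR and hnRNP splicing factor genes were followed by bulk RNA-seq in organoids of the mouse small intestine. Members were all entries of the count tables whose symbol is Srsf followed by a number or begins with Hnrnp, which gave 31 of the 55335 entries: 11 SR genes, Srsf1 to Srsf7 and Srsf9 to Srsf12, and 20 hnRNP genes. The values of the members were not used to choose them. SR proteins without the Srsf symbol and hnRNP proteins under other symbols were kept in separate lists.

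The organoids came from line26, derived from a female mouse of the genotype Lgr5GFPDTR/+, in which a GFP and diphtheria toxin receptor cassette sits at Lgr5, and all 12 libraries carry that allele. ENR control organoids grew in ENR medium (EGF, Noggin and R-spondin) and were taken at day 6. The RANKL and RANKL II groups received 3 µM CHIR99021, a GSK3 inhibitor, with valproic acid (1.5 mM), which inhibits histone deacetylases, for 3 days, then ENR medium for 1 day and RANKL (100 ng/mL), a cytokine that induces M cells, for 6 days. The RANKL+CSRM617 group was treated in the same way with CSRM617 (40 µM), a compound known as an ONECUT2 inhibitor, added to RANKL. The sample names of the ENR controls begin with CVENR, and the labels used here do not explain the letters CV. These letters could refer to the pretreatment compounds. Whether the ENR controls also received CHIR99021 and valproic acid is not stated, so it is unknown whether RANKL and ENR control differ in that pretreatment. Each group has 3 libraries, from independent differentiation experiments of a single line and not from separate animals. The study compared RANKL with ENR control and RANKL+CSRM617 with RANKL II, and the comparisons share no library.

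SR proteins carry RNA recognition motifs and a tail rich in arginine and serine. They bind exonic enhancers and recruit the U1 and U2 small nuclear ribonucleoproteins, which favours inclusion of the bound exon, and kinases of the SRPK and CLK families phosphorylate the tail to control their import and activity. The hnRNP proteins coat nascent transcripts and often oppose SR proteins at silencers, although several also activate exons or act in transcription, export, mRNA decay and translation. Many genes of both families limit their own output through exons or introns that, when included, send the transcript to nonsense-mediated decay. In the annotation used here (GENCODE M21, GRCm38), 19 of the 31 genes have at least 1 transcript of that class: 9 SR genes and 10 hnRNP genes. Gene counts sum over such transcripts and do not separate them.

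Depth and composition differed between the groups. Totals ran from 5795541 to 7719157 counts per library in the first table and from 8669153 to 14041947 in the second, and the tested members had 124 to 8136 counts in each library. Loci that collect ribosomal RNA reads took 21.9% to 35.5% of the counts in ENR control and 9.71% to 10.7% in RANKL. In the second table they took 6.44% to 6.71% in RANKL II and 15.3% to 15.8% with CSRM617. ENR control replicate 2 had the 21.9%, against 31.0% and 35.5% in its fellow replicates. All 5 epithelial markers were detected in every group, with a summed level of 2823 to 4219 CPM (counts scaled to equal library size with TMM factors). The 6 M cell markers summed to 56.9 to 62.9 CPM in ENR control, where Gp2 was at 0, and to 844 to 903 CPM in RANKL. In the second table they summed to 819 to 829 CPM in RANKL II and 850 to 880 CPM in RANKL+CSRM617, with 3 markers higher and 3 lower. The 6 immune markers summed to 4.52 to 10.7 CPM, and the 6 stromal and endothelial markers to 1.04 to 3.20 CPM with Col1a2, Col3a1 and Cdh5 at 0, in all groups. Proliferation markers, 8 in all, summed to 1530 to 1575 CPM in ENR control and 1048 to 1284 CPM in RANKL, and to 380 to 389 CPM in RANKL II and 596 to 613 CPM in RANKL+CSRM617. The 5 enterocyte markers summed to 784 to 926 CPM in ENR control and 2307 to 3229 CPM in RANKL, then 3389 to 3447 CPM in RANKL II against 8375 to 8684 CPM with CSRM617. The 4 stem cell markers summed to 1524 to 1924 CPM in ENR control and 423 to 673 CPM in RANKL, then 82.7 to 86.4 CPM in RANKL II against 101 to 103 CPM with CSRM617. The 4 Paneth cell markers overlapped in the first table (223 to 371 and 302 to 319 CPM) and were at 454 to 467 CPM in RANKL II against 517 to 532 CPM with CSRM617. The sums hide markers that moved against each other. With RANKL, 1 Paneth cell marker was higher and 3 lower, and the stem cell, enterocyte and proliferation lists gave 1 and 2, 4 and 1, and 0 and 5. With CSRM617 the Paneth cell list gave 3 higher and 1 lower, and the other lists, in that order, 2 and 1, 5 and 0, and 4 and 2. Mitochondrial genes took 5.43% to 7.96% of the counts in ENR control and 2.52% to 2.89% in RANKL, then 6.04% to 6.11% in RANKL II against 8.61% to 11.0% with CSRM617. The nuclear RNAs Malat1 and Neat1 summed to 8006 to 9579 CPM in ENR control and 25878 to 29120 CPM in RANKL, and to 36322 to 37577 CPM in RANKL II and 33715 to 36274 CPM in RANKL+CSRM617. The part of these shifts in the results below was not tested.

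Change also followed GC content. Among all genes tested, those with a transcript GC content under 40% had a median log2 change of 0.55 with RANKL and -0.95 with CSRM617, and those at 60% or more had -0.41 and 0.57. The members run from 39.9% GC (Hnrnpa3) to 56.8% (Srsf4), so changes called in the edgeR fit are also given from the same fit with GC offsets, in which a smooth curve of level on transcript GC is taken out of each library first. Such a curve cannot tell a technical GC trend from a biological difference between low-GC and high-GC genes.

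Per kilobase of exon, the families span a wide range, and the order was much the same in all groups. Hnrnpab had the highest mean level in each group, from 89.7 ± 1.26 CPM per kb in RANKL II to 133 ± 2.06 in ENR control (SD, n = 3), although its counts may include reads of an overlapping gene, as given below. In ENR control it was followed by Srsf2 at 131 ± 20.4, Srsf5 at 119 ± 11.1, Hnrnpa1 at 94.5 ± 5.12 and Hnrnpa2b1 at 92.0 ± 0.337 CPM per kb. The ranges of Hnrnpab and Srsf2 and those of Srsf2 and Srsf5 overlapped there, so the order of these 3 was not resolved, and in RANKL the ranges of Hnrnpab and Srsf5 overlapped. At the low end stood Hnrnpr, Hnrnpll and Hnrnph2, at 7.08 ± 0.168, 7.01 ± 0.296 and 6.86 ± 0.666 CPM per kb. Between groups the Spearman correlation of the members' levels was 0.93 to 0.98 over 31 genes, given as a description because the genes share libraries. Of the 30 pairs of neighbours in the order, 21 had overlapping ranges in ENR control and 14 with RANKL, against 11 in RANKL II and 8 with CSRM617 added. Hnrnpa0 held position 6 in ENR control and 8 with RANKL, and position 14 in RANKL II and 6 again with CSRM617 added. Srsf2 held position 2 in ENR control and 5 with RANKL, and position 5 in RANKL II and 4 with CSRM617 added.

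**Figure D1:**
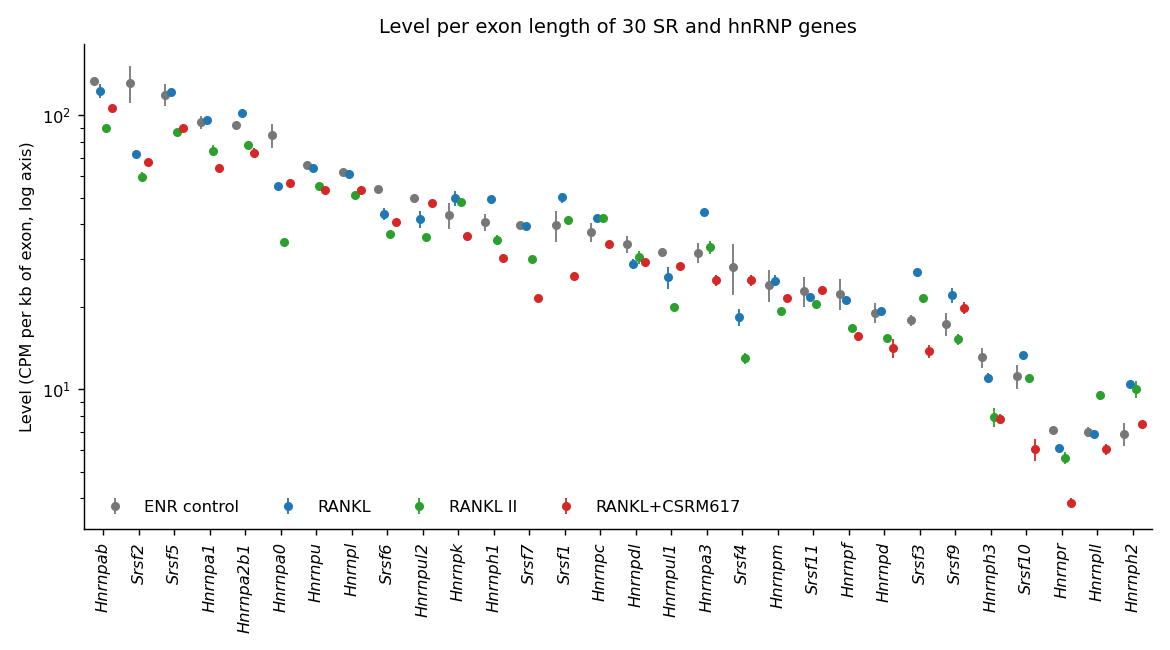
Level of the 30 SR and hnRNP genes with counts, in CPM per kb of exon on a log axis, ordered by ENR control; points are means of 3 libraries and bars 1 SD. Hnrnpab has the highest mean in each group, and Srsf2, Hnrnpa0 and Srsf4 are the genes of the upper and middle part whose ENR control point stands well above the RANKL and RANKL II points.

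With RANKL, the families moved in both directions and not as a block. Of the 30 members tested, 7 were higher than in ENR control (Hnrnpa3, Hnrnph1, Hnrnph2, Srsf1, Srsf3, Srsf9, Srsf10), 9 were lower (Hnrnpa0, Hnrnpdl, Hnrnph3, Hnrnpr, Hnrnpul1, Hnrnpul2, Srsf2, Srsf4, Srsf6) and 14 did not pass the test. Over all 13570 genes 56.7% were called, 28.7% higher and 28% lower, so 16 of 30 is close to the background. Among the 10 SR genes tested 4 rose and 3 fell, and among the 20 hnRNP genes 3 rose and 6 fell. The median log2 change of the members was -0.02, against 0.00 for all genes tested, and the members ran from -0.85 (Srsf2) to 0.60 (Hnrnph2). The ranges of the RANKL and ENR control libraries did not overlap for 18 of 30 members, against 63.3% of all genes. Without ENR control replicate 2, the library that stands apart, 11 members were higher and 10 lower, against 4132 and 4068 of 13667 genes. With GC offsets 3 members were higher (Hnrnph1, Hnrnph2, Srsf9) and 11 lower, against 26.9% and 26.5% of all genes, with a median of -0.11. No member reached a 2-fold change in either comparison, whereas 17.7% of all genes were both called and changed at least 2-fold with RANKL and 13.1% with CSRM617.

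With CSRM617, members again moved in both directions. Of 30, 10 were higher than in RANKL II (Hnrnpa0, Hnrnpab, Hnrnpm, Hnrnpul1, Hnrnpul2, Srsf2, Srsf4, Srsf6, Srsf9, Srsf11), 14 were lower (Hnrnpa1, Hnrnpa2b1, Hnrnpa3, Hnrnpc, Hnrnpd, Hnrnph1, Hnrnph2, Hnrnpk, Hnrnpll, Hnrnpr, Srsf1, Srsf3, Srsf7, Srsf10) and 6 did not pass. Over all 14167 genes 71.4% were called, 35.2% higher and 36.2% lower, so the count is again near the background, which is itself higher than with RANKL. The SR genes gave 5 higher and 4 lower of 10, and the hnRNP genes 5 higher and 10 lower of 20. The median log2 change was -0.07 (all genes -0.02), with a range from -0.86 (Srsf10) to 0.94 (Srsf4), and ranges did not overlap for 24 of 30 members against 73.1% of all genes. GC offsets changed this picture more than the first: 17 members were then higher and 4 lower (Hnrnpf, Hnrnpl, Hnrnpll, Srsf10), against 29.7% and 33.6% of all genes, and the median was 0.11. Hnrnpa2b1, Hnrnpa3, Hnrnpc, Hnrnpd and Hnrnph2 were called lower without the offsets and higher with them. For these 5 genes the direction depends on the treatment of GC, and both values are given below.

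**Figure D2:**
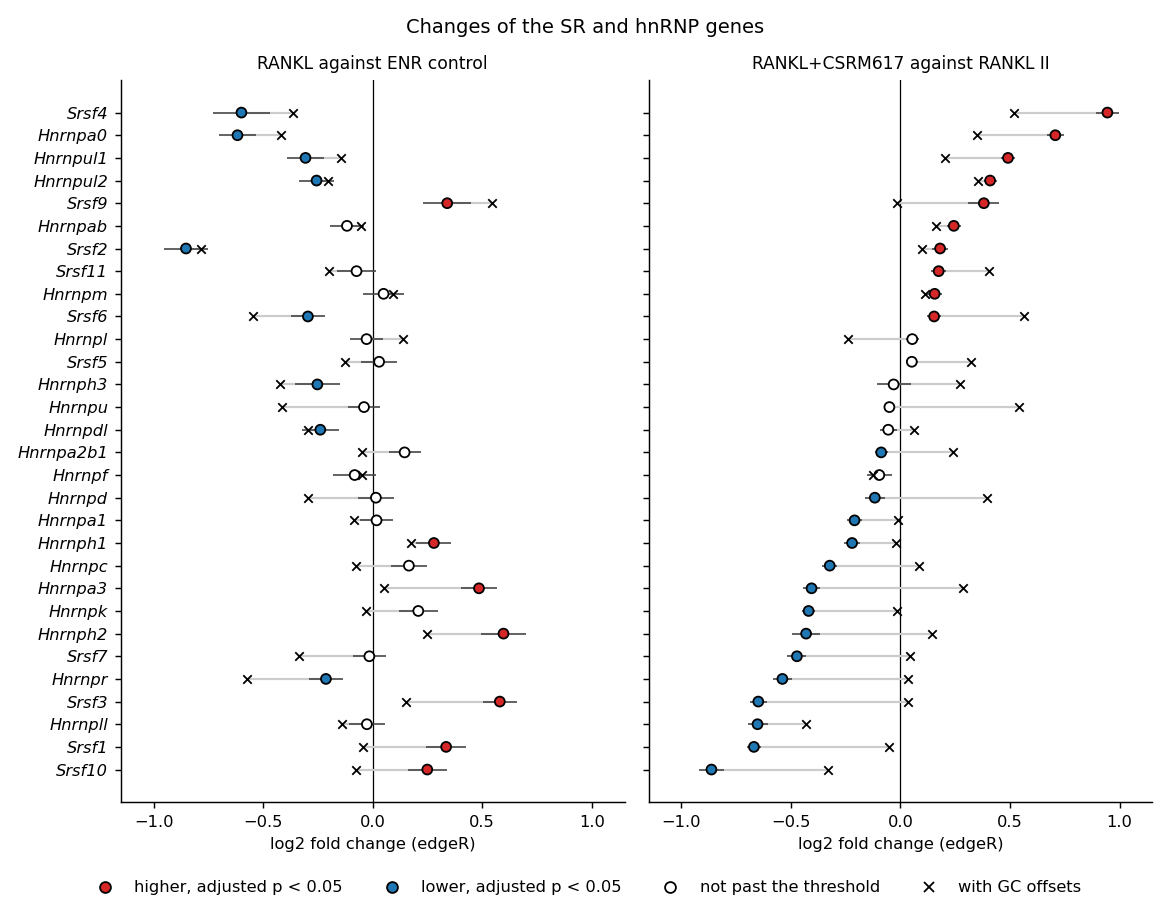
Log2 fold change of the 30 tested members (left, RANKL against ENR control; right, RANKL+CSRM617 against RANKL II), with SE bars; red and blue points passed adjusted p under 0.05, and crosses give the fit with GC offsets. Srsf4, Hnrnpa0, Hnrnpul1, Hnrnpul2, Srsf2 and Srsf6 keep point and cross on the left of 0 with RANKL and on the right with CSRM617, while Srsf3, Srsf1 and Hnrnpa3 have crosses near or across 0.

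Of the 14 members called in both comparisons, 12 had changes of opposite sign, as did 69.2% of the 5742 genes called in both. Of these, 6 were lower with RANKL and higher with CSRM617 (Hnrnpa0, Hnrnpul1, Hnrnpul2, Srsf2, Srsf4, Srsf6) and 6 were higher with RANKL and lower with CSRM617 (Hnrnpa3, Hnrnph1, Hnrnph2, Srsf1, Srsf3, Srsf10). Over the 13263 genes tested in both comparisons these patterns held for 14.3% and 15.7%. Srsf9 was higher in both, as were 7.7% of all genes, and Hnrnpr was lower in both, as were 5.62%. With GC offsets, 8 members were lower with RANKL and higher with CSRM617 against 9.87% of all genes, and 0 members showed the opposite order against 11.7%, also at an unadjusted p under 0.05. Of the 4904 genes called in both with offsets 58.4% had opposite signs. Across the 30 members the changes in the comparisons had a Pearson r of -0.65 (Spearman rho -0.64), and -0.41 (-0.50) with GC offsets, beside -0.23 (-0.31) and -0.16 (-0.12) over all genes. These are descriptions over genes that share libraries and a GC trend. Srsf2, Srsf4, Srsf6, Hnrnpa0 and Hnrnpul2 were called lower with RANKL and higher with CSRM617 both with and without GC offsets. In bulk RNA a change in how many cells make a transcript and a change in the amount per cell cannot be told apart.

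The stretch before the start site is shown for these genes because they carry the pattern that held in both fits. The bases come from RefSeq (GRCm38.p6), which matched 29 of the 31 genes in 41 windows. Each run is written 5′ to 3′ on the gene's strand and ends at or near the start of the first RefSeq transcript, without bases that lie in an exon of GENCODE M21. Hnrnpul2 had no entry. Capitals mark the motifs CCAAT (the box bound by NF-Y) and GGGCGG (the box bound by Sp1) on either strand. Srsf2 is at chr11:116853095-116853294 on the minus strand, Srsf4 at chr4:131873387-131873616 on the plus strand, Srsf6 at chr2:162931258-162931507 on the plus strand and Hnrnpa0 at chr13:58128557-58128806 on the minus strand.
Srsf2: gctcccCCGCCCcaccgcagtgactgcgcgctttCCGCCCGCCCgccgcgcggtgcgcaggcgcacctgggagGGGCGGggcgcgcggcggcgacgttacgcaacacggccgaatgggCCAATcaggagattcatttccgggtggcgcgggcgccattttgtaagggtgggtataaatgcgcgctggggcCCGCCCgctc
Srsf4: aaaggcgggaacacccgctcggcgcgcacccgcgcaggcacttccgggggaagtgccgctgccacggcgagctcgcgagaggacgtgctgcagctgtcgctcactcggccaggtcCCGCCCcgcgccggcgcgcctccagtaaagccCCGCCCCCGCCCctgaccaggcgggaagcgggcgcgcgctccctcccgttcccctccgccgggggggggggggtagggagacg
Srsf6: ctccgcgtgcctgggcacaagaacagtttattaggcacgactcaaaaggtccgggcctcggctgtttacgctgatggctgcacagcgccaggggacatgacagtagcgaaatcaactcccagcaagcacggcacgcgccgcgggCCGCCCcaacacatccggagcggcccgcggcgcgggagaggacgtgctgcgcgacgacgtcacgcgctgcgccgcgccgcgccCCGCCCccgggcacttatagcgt
Hnrnpa0: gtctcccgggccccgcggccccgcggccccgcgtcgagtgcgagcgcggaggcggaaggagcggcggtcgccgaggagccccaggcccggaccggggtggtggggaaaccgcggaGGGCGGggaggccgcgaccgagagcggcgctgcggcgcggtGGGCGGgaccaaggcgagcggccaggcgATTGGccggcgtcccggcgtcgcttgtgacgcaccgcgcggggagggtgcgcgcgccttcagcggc

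These 4 stretches are rich in CpG, with 30, 33, 35 and 46 CpG dinucleotides in 200, 230, 250 and 250 bases. GGGCGG was found 5 times for Srsf2, 3 times for Srsf4, and 2 times each for Srsf6 and Hnrnpa0, and CCAAT once each for Srsf2 and Hnrnpa0. Over the 41 member windows of 250 bases, 33 held GGGCGG and 20 held CCAAT, compared with 32.7% and 33.9% of 32851 windows in the table. The median member window had 68.0% GC and 23 CpG against 52.4% and 6 in all windows. CACGTG was found in 3 member windows (6.02% of all), ATCAAT in 1 (6.72%), ATCGAT in 0 (0.73%) and the NF-kB consensus in 1 (5.0%). In the last 4 counts matches may overlap each other, and no match says only that these letters are not in the window.

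Among the SR genes, Srsf2 fell most with RANKL. It encodes SC35, a classical marker of nuclear speckles that binds both C-rich and G-rich exonic enhancers. Its levels were 383, 329 and 449 CPM in ENR control and 214, 206 and 222 CPM in RANKL, and 185, 170 and 174 CPM in RANKL II and 199, 200 and 200 CPM in RANKL+CSRM617. Every RANKL library was below every ENR control library, and every CSRM617 library was above every RANKL II library. The log2 change was -0.85 ± 0.10 (SE) with RANKL, 1.81-fold lower (edgeR adjusted p = 3.08e-06), and 0.18 ± 0.035 with CSRM617 (adjusted p = 1.26e-05). The change with GC offsets was -0.78 and 0.10. Srsf2 lies on chromosome 11, minus strand, and 25.3% of its exon bases overlap exons of Mettl23 and Mfsd11 on the opposite strand. Since the strand setting of the counting is not known, reads of these genes may be mixed.

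Srsf4 and Srsf6 form a closely related pair with a second RNA recognition motif, and both kept their direction with offsets. Srsf4 had 112, 75.2 and 111 CPM in ENR control and 69.7, 60.2 and 65.5 CPM in RANKL, and 46.3, 43.9 and 48.3 CPM in RANKL II and 89.7, 93.0 and 84.7 CPM in RANKL+CSRM617. The low control value is ENR control replicate 2, which still stood above all RANKL libraries. The log2 change of Srsf4 was -0.60 ± 0.13 with RANKL (adjusted p = 0.00117) and 0.94 ± 0.053 with CSRM617, 1.92-fold higher (adjusted p = 4.06e-20), and -0.36 and 0.52 with GC offsets. Of the exon bases of Srsf4 43.0% overlap Gm12992 on the opposite strand, and 65.8% of its 42-base words occur in another annotated gene, so its counts are uncertain. Srsf6 had 260, 249 and 265 CPM in ENR control and 220, 210 and 199 CPM in RANKL, then 175, 175 and 180 CPM in RANKL II and 197, 198 and 196 CPM in RANKL+CSRM617. Its groups did not overlap in either comparison, its log2 change was -0.30 ± 0.078 (adjusted p = 0.00413) and 0.15 ± 0.033 (adjusted p = 8.24e-05), and with GC offsets it was larger, -0.55 and 0.56. None of the 42-base words of Srsf6 is shared and no exon overlaps it. Per kilobase, the ratio of Srsf4 to Srsf6 was 0.52 ± 0.096 in ENR control and 0.42 ± 0.030 in RANKL, where ENR control replicate 2 at 0.41 lay inside the RANKL range, and 0.35 ± 0.012 in RANKL II and 0.61 ± 0.026 in RANKL+CSRM617. The ratio carries no GC offsets, with which Srsf4 and Srsf6 changed by 0.52 and 0.56 with CSRM617. With RANKL they changed by -0.36 and -0.55 with offsets, so that Srsf6 fell more, the opposite order to the ratio.

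**Figure D3:**
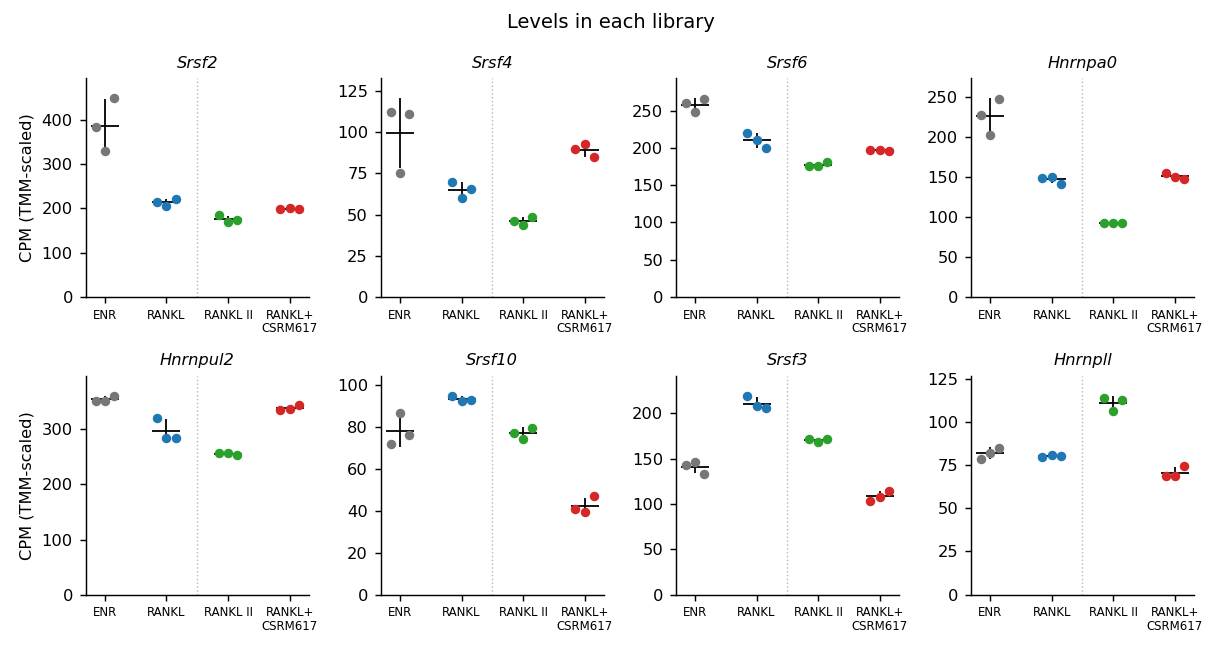
CPM of 8 members in each library, with axes from 0; bars give the mean and SD of 3 libraries, and the dotted line separates the tables, which were scaled separately. Srsf2, Srsf4, Srsf6, Hnrnpa0 and Hnrnpul2 are lower in all RANKL than in all ENR control libraries and higher in all RANKL+CSRM617 than in all RANKL II libraries; Srsf10 and Srsf3 run the other way, and Hnrnpll differs in the second table.

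Srsf1 and Srsf9 are a pair with similar RNA recognition motifs, and Srsf1 is the founding SR protein, which also acts in export and translation. Srsf1 had 201, 259 and 220 CPM in ENR control and 297, 288 and 273 CPM in RANKL, then 237, 239 and 233 CPM in RANKL II and 146, 147 and 152 CPM in RANKL+CSRM617. It was higher in each RANKL library and lower in each CSRM617 library, with log2 changes of 0.34 ± 0.093 (adjusted p = 0.00589) and -0.67 ± 0.034 (adjusted p = 1.00e-21). With GC offsets these shrank to -0.05 and -0.05 and neither passed (adjusted p = 0.636 and 0.117). The rise with RANKL also missed the threshold without ENR control replicate 1 (0.25, adjusted p = 0.0564). Srsf9 had 25.7, 31.3 and 28.8 CPM in ENR control and 36.8, 38.3 and 34.0 CPM in RANKL, then 24.0, 25.0 and 26.4 CPM in RANKL II and 31.7, 34.6 and 32.1 CPM in RANKL+CSRM617. It rose in both comparisons, by a log2 change of 0.34 ± 0.11 (adjusted p = 0.0149) and 0.38 ± 0.071 (adjusted p = 8.07e-06). The first rise was 0.54 with GC offsets, and the second was lost at -0.02 (adjusted p = 0.857). The first also missed the threshold without ENR control replicate 1 (adjusted p = 0.0904), without RANKL replicate 2 (0.0754) and in DESeq2 (0.0530). Per kilobase, Srsf1 stood 2.29 ± 0.092 times as high as Srsf9 in ENR control and 2.28 ± 0.088 with RANKL, and 2.72 ± 0.16 times in RANKL II and 1.31 ± 0.075 with CSRM617 added, with no overlap between the last pair. With GC offsets, which these ratios do not carry, the changes with RANKL were -0.05 for Srsf1 and 0.54 for Srsf9. With CSRM617 they were -0.05 and -0.02.

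Srsf3 and Srsf7 link splicing to the export receptor NXF1 and to the choice of poly(A) site, and Srsf3 is the shortest SR protein. Srsf3 had 143, 146 and 133 CPM in ENR control and 219, 208 and 206 CPM in RANKL, then 172, 168 and 172 CPM in RANKL II and 103, 108 and 115 CPM in RANKL+CSRM617. All libraries of a group stood apart from those of its partner group, with a log2 change of 0.58 ± 0.079 with RANKL (adjusted p = 1.39e-05) and -0.65 ± 0.039 with CSRM617 (adjusted p = 3.28e-19). At 40.0% GC it is among the members with the lowest GC content, and with offsets the changes were 0.15 (adjusted p = 0.0953) and 0.03 (adjusted p = 0.410). Srsf7 had 139, 145 and 140 CPM in ENR control against 138, 139 and 142 CPM in RANKL, with overlapping ranges and a log2 change of -0.02 ± 0.076 (adjusted p = 0.880). In the second table it fell from 104, 104 and 108 CPM to 76.2, 76.0 and 76.6 CPM (log2 change -0.47 ± 0.043, adjusted p = 3.53e-13), and with GC offsets the changes were -0.33 and 0.04. The ratio of Srsf3 to Srsf7 per kilobase was 0.45 ± 0.020 in ENR control and 0.68 ± 0.031 in RANKL, with no overlap. It was 0.73 ± 0.014 in RANKL II and 0.64 ± 0.032 in RANKL+CSRM617, also with no overlap. These ratios carry no GC offsets, with which the genes changed by nearly the same amount with CSRM617 (0.03 and 0.04). Pseudogenes and other entries share 33.9% of the 42-base words of Srsf3.

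Srsf10 and Srsf12 encode SR proteins that, when dephosphorylated, repress splicing in heat shock and mitosis (best known for SRSF10). Srsf10 had 71.6, 86.6 and 75.9 CPM in ENR control and 94.6, 92.1 and 92.6 CPM in RANKL, then 77.2, 74.0 and 79.5 CPM in RANKL II and 40.6, 39.3 and 46.8 CPM in RANKL+CSRM617. Without GC offsets it showed the largest fall of any member with CSRM617, a log2 change of -0.86 ± 0.058, 1.82-fold lower (adjusted p = 2.27e-17), and this call was kept with GC offsets at -0.33 (adjusted p = 3.95e-09), where Hnrnpll fell further, by -0.43. The rise of Srsf10 with RANKL, 0.25 ± 0.089 (adjusted p = 0.0253), did not pass with offsets (-0.08), in DESeq2 (adjusted p = 0.0575), or without ENR control replicate 1 or 3 or any 1 of the RANKL replicates (adjusted p = 0.0559 to 0.146). Srsf12 had 0 counts in all 12 libraries, and 3 counts would make 0.214 to 0.518 CPM in them, so it was not tested and is not detectable at this depth. Intervals of this kind cover counting error only. Pseudogenes share 10.4% of the 42-base words of Srsf10.

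Srsf5 and Srsf11 complete the SR genes. Srsf5, an SR gene induced by insulin in liver cells, stayed between 424 and 508 CPM in the first table and between 341 and 361 CPM in the second, and passed neither test (log2 change 0.03, adjusted p = 0.784, and 0.05, adjusted p = 0.102). With CSRM617 it passed without RANKL+CSRM617 replicate 1 (0.07, adjusted p = 0.0436) or 3 (0.06, adjusted p = 0.0416), and with GC offsets, at 0.32. A pseudogene shares 30.9% of its 42-base words. Srsf11, which encodes a protein that contacts the splicing factor U2AF, was at 169 to 217 CPM in ENR control and 181 to 184 CPM in RANKL (log2 change -0.07, adjusted p = 0.509; -0.17, adjusted p = 0.0258 without ENR control replicate 2). It rose with CSRM617 from 169 to 175 CPM to 188 to 201 CPM (0.17 ± 0.035, adjusted p = 2.19e-05; 0.41 with GC offsets). Summed over the family, SR counts were 1913 to 2129 CPM in ENR control and 1905 to 1945 CPM in RANKL. They were 1518 to 1541 CPM in RANKL II and 1427 to 1465 CPM in RANKL+CSRM617. The latter ranges did not overlap, as for 73.1% of all single genes tested there. These sums carry no GC offsets, with which 5 SR genes were higher and 1 lower with CSRM617 (29.7% and 33.6% of all genes).

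The A group of hnRNP genes held changes in both directions. Hnrnpa0, a single-exon gene on chromosome 13 whose product binds AU-rich elements of stress and inflammatory mRNAs, had 228, 203 and 248 CPM in ENR control and 149, 150 and 142 CPM in RANKL. In the second table it had 92.7, 92.3 and 92.4 CPM in RANKL II and 155, 150 and 148 CPM in RANKL+CSRM617. No group overlapped its partner, and the log2 change was -0.62 ± 0.087 (adjusted p = 1.94e-05) and 0.71 ± 0.039, 1.63-fold higher (adjusted p = 2.23e-20). With GC offsets the changes were -0.42 and 0.35, both past the threshold. None of its 42-base words is shared with another gene and no annotated exon overlaps it. Hnrnpa3, which binds a trafficking element of mRNAs along with Hnrnpa2b1, ran the other way: 164, 187 and 160 CPM in ENR control and 246, 239 and 231 CPM in RANKL, then 173, 171 and 190 CPM in RANKL II and 132, 131 and 141 CPM in RANKL+CSRM617. The log2 change was 0.49 ± 0.083 with RANKL (adjusted p = 0.000128) and -0.41 ± 0.040 with CSRM617 (adjusted p = 3.86e-12). It has the lowest GC content of the members, 39.9%, and with GC offsets its changes were 0.05 (adjusted p = 0.553) and 0.29 in the opposite direction (adjusted p = 1.05e-15). Other annotated genes, pseudogenes among them, share 28.5% of its 42-base words.

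Hnrnpa1 and Hnrnpa2b1, abundant repressors that bind UAG-like silencers, did not pass with RANKL. Hnrnpa1 had 304, 311 and 280 CPM in ENR control and 302, 307 and 297 CPM in RANKL, which overlap (log2 change 0.02 ± 0.076, adjusted p = 0.860). It fell from 223, 236 and 244 CPM in RANKL II to 196, 203 and 209 CPM in RANKL+CSRM617 (-0.21 ± 0.035, adjusted p = 8.62e-07), and this was -0.0096 with GC offsets (adjusted p = 0.786). Pseudogenes share 47.1% of its 42-base words. Hnrnpa2b1 had 604, 608 and 604 CPM in ENR control and 677, 669 and 664 CPM in RANKL, with no overlap but no call (0.15 ± 0.073, adjusted p = 0.102; 0.14, adjusted p = 0.0330 without ENR control replicate 2). With CSRM617 it had 466, 474 and 504 CPM against 507, 502 and 526 CPM, which overlap. That fall, -0.09 ± 0.029 (adjusted p = 0.00684), missed the threshold without RANKL II replicate 3, without RANKL+CSRM617 replicate 1 or 2 and in DESeq2 (adjusted p = 0.0705 to 0.159). It was -0.025 in the fit of all 12 libraries (adjusted p = 0.686) and 0.24 with GC offsets. The ratio of Hnrnpa1 to Hnrnpa2b1 per kilobase was 1.03 ± 0.053 in ENR control and 0.94 ± 0.014 with RANKL, and 0.96 ± 0.034 in RANKL II and 0.88 ± 0.014 with CSRM617 added, with no overlap within either table. Hnrnpab, at 322 to 377 CPM in the first table, did not pass with RANKL (-0.12, adjusted p = 0.207) and rose with CSRM617 from 246 to 253 CPM to 288 to 299 CPM (0.24 ± 0.031, adjusted p = 2.27e-09; 0.16 with GC offsets). Of its exon bases 29.1% overlap Phykpl on the opposite strand, and 30.8% of its 42-base words occur in another annotated gene, so its counts are uncertain.

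Hnrnpul1 and Hnrnpul2 are relatives of Hnrnpu with roles in transcription and in the resection of DNA ends. Hnrnpul1 had 277, 267 and 279 CPM in ENR control and 233, 234 and 198 CPM in RANKL, then 172, 175 and 172 CPM in RANKL II and 242, 248 and 240 CPM in RANKL+CSRM617. Hnrnpul2 had 351, 351 and 361 CPM in ENR control and 321, 285 and 284 CPM in RANKL, then 256, 257 and 253 CPM in RANKL II and 336, 338 and 344 CPM in RANKL+CSRM617. For both genes all libraries of each group lay apart from those of its partner. Hnrnpul1 fell with RANKL by a log2 value of -0.31 ± 0.084 (adjusted p = 0.00559), which with GC offsets was -0.14 (adjusted p = 0.115). With CSRM617 it rose by 0.49 ± 0.033 (adjusted p = 1.39e-17), or 0.20 with offsets. Hnrnpul2 fell with RANKL by -0.26 ± 0.079 (adjusted p = 0.0116) and rose with CSRM617 by 0.41 ± 0.030 (adjusted p = 2.40e-16), and both calls were kept with offsets at -0.20 and 0.35. The fall of Hnrnpul2 missed the threshold without RANKL replicate 2 (adjusted p = 0.0834) or replicate 3 (0.0527). Hnrnpu itself, the scaffold attachment factor that binds chromatin-associated RNA, was the member with the highest CPM, 732 to 793 in the first table and 609 to 652 in the second. It passed neither test (-0.04, adjusted p = 0.676, and -0.05, adjusted p = 0.0822) but was called lower with CSRM617 without RANKL+CSRM617 replicate 3 (-0.06, adjusted p = 0.0140), and with GC offsets in both, at -0.41 and 0.54.

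The H and F group binds runs of G. Hnrnph1 had 237, 255 and 221 CPM in ENR control and 287, 284 and 296 CPM in RANKL, and 203, 197 and 214 CPM in RANKL II and 184, 173 and 172 CPM in RANKL+CSRM617. Hnrnph2, an X-linked gene, had 28.2, 33.3 and 28.3 CPM in ENR control and 45.5, 47.1 and 44.4 CPM in RANKL, and 40.3, 46.2 and 45.0 CPM in RANKL II and 33.3, 32.9 and 31.6 CPM in RANKL+CSRM617. Both rose with RANKL in every library, Hnrnph1 by 0.28 ± 0.079 (adjusted p = 0.00706) and Hnrnph2 by 0.60 ± 0.10 (adjusted p = 0.000141), and kept the call with GC offsets at 0.18 and 0.25. Both fell with CSRM617, by -0.22 ± 0.036 (adjusted p = 5.59e-07) and -0.43 ± 0.065 (adjusted p = 1.30e-07), and neither fall was kept with offsets (-0.02 and 0.14). The ratio of Hnrnph1 to Hnrnph2 per kilobase was 5.95 ± 0.29 in ENR control and 4.74 ± 0.25 with RANKL, and 3.50 ± 0.29 in RANKL II and 4.04 ± 0.10 with CSRM617 added, with no overlap within either table. The ratio carries no GC offsets. With them Hnrnph1 changed by -0.02 and Hnrnph2 by 0.14 with CSRM617, which is the opposite order. Hnrnph3 fell with RANKL from 37.7 to 44.7 CPM to 33.7 to 36.3 CPM (-0.25 ± 0.10, adjusted p = 0.0437; -0.42 with GC offsets). That call was lost without ENR control replicate 1 or any 1 of the RANKL replicates, and in DESeq2, in limma and with no filter or a stricter one (adjusted p = 0.0616 to 0.170). Hnrnph3 did not pass with CSRM617 (-0.03, adjusted p = 0.729) but was higher with GC offsets, at 0.27 (adjusted p = 0.000962). Hnrnpf passed neither test (-0.08, adjusted p = 0.503, and -0.10, adjusted p = 0.124), and with GC offsets it was lower with CSRM617, at -0.12 (adjusted p = 0.0407). Of its 42-base words 68.8% are shared, most with pseudogenes. For Hnrnph2 20.7% are shared with other annotated genes.

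Hnrnpl and Hnrnpll bind CA-rich elements, and Hnrnpll is known for the switch of CD45 isoforms in lymphocytes. Hnrnpl had 369, 380 and 364 CPM in ENR control and 379, 361 and 352 CPM in RANKL, and 306, 311 and 300 CPM in RANKL II and 316, 324 and 311 CPM in RANKL+CSRM617. Its groups overlapped in both comparisons and it passed neither test (-0.03, adjusted p = 0.771, and 0.05, adjusted p = 0.105), although with CSRM617 it was higher without RANKL+CSRM617 replicate 3 (0.08, adjusted p = 0.00509) and lower with GC offsets, at -0.24. Hnrnpll had 78.3, 82.1 and 85.2 CPM in ENR control and 79.8, 80.7 and 80.6 CPM in RANKL, which overlap (-0.03, adjusted p = 0.799). With CSRM617 it fell in every library, from 114, 106 and 113 CPM to 68.5, 68.8 and 74.5 CPM, a log2 change of -0.65 ± 0.046, 1.57-fold lower (adjusted p = 6.93e-17). The fall was -0.43 with GC offsets (adjusted p = 4.66e-21). At 45.2% GC the gene lies near the border between classes with median log2 changes of -0.46 (40% to 45% GC) and -0.10 (45% to 50% GC). No base of its exons overlaps another annotated gene and none of its 42-base words is shared. The ratio of Hnrnpl to Hnrnpll per kilobase was 8.90 ± 0.45 in ENR control and 8.88 ± 0.38 in RANKL, with overlapping ranges, and 5.40 ± 0.29 in RANKL II and 8.82 ± 0.56 in RANKL+CSRM617, with none. The tables were scaled separately, and ratios are set side by side across them without a test. They carry no GC offsets, with which Hnrnpl and Hnrnpll changed by 0.14 and -0.14 with RANKL, neither past the threshold. With CSRM617 these genes changed by -0.24 and -0.43 with offsets.

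Hnrnpd (AUF1, a factor of AU-rich mRNA decay) and its relative Hnrnpdl had small changes in the fit without offsets. Hnrnpd had 135, 154 and 131 CPM in ENR control and 143, 142 and 140 CPM in RANKL (0.01 ± 0.083, adjusted p = 0.894), and 113, 112 and 116 CPM in RANKL II and 96.5, 103 and 113 CPM in RANKL+CSRM617. The latter ranges overlap, and the fall of -0.12 ± 0.045 (adjusted p = 0.0181) was lost without RANKL II replicate 3, without RANKL+CSRM617 replicate 1 or 2 and in DESeq2 (adjusted p = 0.0872 to 0.290), and was -0.06 in the fit of all 12 libraries (adjusted p = 0.457). With GC offsets Hnrnpd was called in both comparisons, lower with RANKL at -0.30 (adjusted p = 0.00117) and higher with CSRM617 at 0.39 (adjusted p = 3.21e-21). Hnrnpdl had 168, 149 and 172 CPM in ENR control and 134, 135 and 145 CPM in RANKL (-0.24 ± 0.083, adjusted p = 0.0227; -0.29 with GC offsets). This fall missed the threshold without ENR control replicate 1 or 3 or RANKL replicate 1 or 2 (adjusted p = 0.0707 to 0.0982). In the second table it had 147, 138 and 154 CPM against 140, 141 and 141 CPM, which overlap (-0.06, adjusted p = 0.193). Their ratio per kilobase was 0.57 ± 0.094 in ENR control and 0.68 ± 0.035 with RANKL, and 0.51 ± 0.020 in RANKL II and 0.49 ± 0.036 with CSRM617 added, with overlap within each table.

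The other hnRNP genes were Hnrnpc, Hnrnpk, Hnrnpm and Hnrnpr. Hnrnpr, whose product is close to Syncrip, was lower in both comparisons, by -0.21 ± 0.076 with RANKL (adjusted p = 0.0250) and -0.54 ± 0.044 with CSRM617 (adjusted p = 8.29e-15), or -0.57 and 0.03 with GC offsets. The first call was lost in DESeq2, with no filter, without ENR control replicate 1 and without any 1 of the RANKL replicates (adjusted p = 0.0542 to 0.117). Hnrnpk, which binds C-rich RNA, and Hnrnpc, which binds U tracts and shields cryptic exons, did not pass with RANKL (0.21, adjusted p = 0.0605, and 0.17, adjusted p = 0.101). Without ENR control replicate 2 both passed, at 0.30 and 0.23 (adjusted p = 0.000330 and 0.00331), and Hnrnpk also without RANKL replicate 3 (0.26, adjusted p = 0.0442). With CSRM617 Hnrnpk fell by -0.42 ± 0.031 (adjusted p = 3.39e-16) and Hnrnpc by -0.32 ± 0.035 (adjusted p = 4.90e-11), against -0.02 and 0.08 with GC offsets. Hnrnpm, which represses exons during epithelial to mesenchymal switches, did not pass with RANKL (0.05, adjusted p = 0.674; 0.16, adjusted p = 0.0372 without ENR control replicate 2) and rose with CSRM617 by 0.16 ± 0.035 (adjusted p = 0.000119; 0.11 with GC offsets). It shares 29.0% of its 42-base words with March2, which overlaps its exons on the same strand. Summed over the 20 genes, hnRNP counts were 4907 to 5100 CPM in ENR control and 4861 to 5050 CPM in RANKL, which overlap. They were 4065 to 4181 CPM in RANKL II and 3975 to 4061 CPM in RANKL+CSRM617, which narrowly do not. These sums carry no GC offsets, with which 12 hnRNP genes were higher and 3 lower with CSRM617 (29.7% and 33.6% of all genes).

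**Figure D4:**
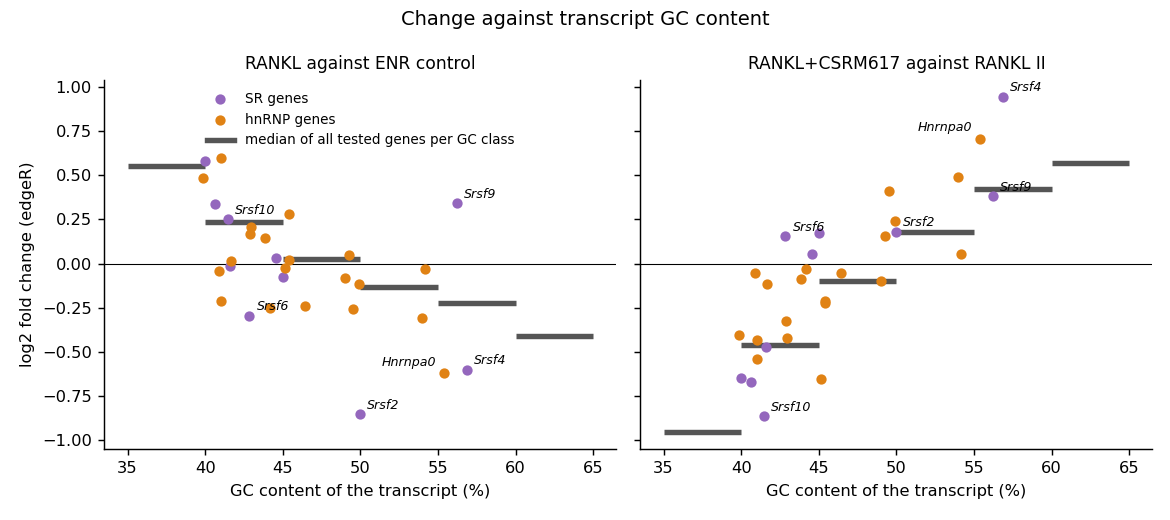
Log2 fold change of the 30 tested members against the GC content of their transcript, with grey bars for the median of all tested genes in each GC class (the lowest bar covers all genes under 40% and the highest all at 60% or more). With RANKL the members scatter around a falling trend, with Srsf2 below it and Srsf9 above; with CSRM617 they follow a rising trend, with Srsf10 below it and Srsf4 and Srsf6 above.

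Across the members, GC content and change had a Pearson r of -0.55 with RANKL and 0.82 with CSRM617 over 30 genes, and 0.07 and 0.04 once the offsets were in the fit. Over all genes the Pearson r was -0.17 and 0.56. The Spearman rho was -0.54 and 0.79 for the members and -0.32 and 0.59 over all genes. The 13 tested members of 40% to 45% GC had a median log2 change of 0.03 with RANKL, where all genes of that class had 0.24, and -0.32 with CSRM617, where all genes had -0.46. The 3 members of 55% to 60% GC (Srsf4, Srsf9, Hnrnpa0) had -0.60 and 0.71 against -0.22 and 0.42 for all genes of the class. Of the 24 members called with CSRM617, 11 kept the call with offsets: 9 higher (Hnrnpa0, Hnrnpab, Hnrnpm, Hnrnpul1, Hnrnpul2, Srsf2, Srsf4, Srsf6, Srsf11) and 2 lower (Hnrnpll, Srsf10). Of the 16 called with RANKL, 11 kept it: 3 higher (Hnrnph1, Hnrnph2, Srsf9) and 8 lower (Hnrnpa0, Hnrnpdl, Hnrnph3, Hnrnpr, Hnrnpul2, Srsf2, Srsf4, Srsf6). The share of all called genes that kept their call is not given here. Whether the members kept theirs more or less often than other genes is therefore unknown.

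Of the kinases and importers that control SR proteins 11 were tested. With RANKL 2 rose and 1 fell (28.7% and 28% of all genes), or 3 and 4 with GC offsets (26.9% and 26.5%). With CSRM617 6 rose and 4 fell (35.2% and 36.2% of all genes), or 4 and 2 with GC offsets (29.7% and 33.6%). Srpk1, the cytoplasmic kinase that primes SR proteins for import, was at 148 ± 9.11 CPM in ENR control and 226 ± 7.10 CPM in RANKL (log2 change 0.61 ± 0.080, adjusted p = 9.85e-06; 0.63 with GC offsets). Clk2, a nuclear kinase that releases SR proteins from speckles, was at 97.2 ± 15.5 CPM in ENR control and 65.2 ± 1.85 CPM in RANKL (-0.57 ± 0.11, adjusted p = 0.000324; -0.35 with offsets), and rose with CSRM617 by 0.46 ± 0.052 (adjusted p = 1.64e-10; 0.07 with offsets). Its relatives Clk1 and Clk4 fell with CSRM617 by -0.53 ± 0.033 (adjusted p = 2.42e-18) and -0.47 ± 0.056 (adjusted p = 6.66e-10), and neither passed with offsets (0.06 and -0.09). Tnpo1, an import receptor for hnRNP proteins such as Hnrnpa1, rose with RANKL by 0.29 ± 0.086 (adjusted p = 0.00812; -0.10 with offsets) and fell with CSRM617 from 206 ± 3.02 to 109 ± 5.41 CPM (-0.92 ± 0.038, adjusted p = 4.75e-25; -0.28 with offsets).

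Among the SR-related proteins, which share the arginine and serine rich tail, 4 rose and 11 fell with RANKL of 26 tested, with a median log2 change of -0.20, and 12 rose and 9 fell with CSRM617, with a median of 0.08. Over all genes 28.7% were higher and 28% lower with RANKL, and 35.2% and 36.2% with CSRM617. With GC offsets 1 of the list rose and 11 fell with RANKL (median -0.19), against 26.9% and 26.5% of all genes. With CSRM617 19 rose and 5 fell with offsets (median 0.29), against 29.7% and 33.6%. Srrm2, the scaffold of nuclear speckles, fell from 2103 ± 409 to 1421 ± 28.0 CPM with RANKL (-0.57 ± 0.12, adjusted p = 0.000601) and rose from 1036 ± 14.4 to 1879.7 ± 39.7 CPM with CSRM617 (0.86 ± 0.025, adjusted p = 1.62e-30), with offsets -0.44 and 0.65. Acin1, a component of the apoptosis and splicing associated complex, moved likewise by -0.46 ± 0.10 (adjusted p = 0.00112) and 0.88 ± 0.031 (adjusted p = 9.36e-28), with offsets -0.28 and 0.57. The exon enhancer proteins Tra2a and Tra2b rose with RANKL by 0.49 ± 0.080 (adjusted p = 9.00e-05) and 0.38 ± 0.096 (adjusted p = 0.00318), and with offsets by 0.31 and 0.07, the latter without passing.

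In the core spliceosome, 3 of 37 genes rose and 10 fell with RANKL, and 18 rose and 11 fell with CSRM617, with medians of -0.11 and 0.16. With GC offsets 0 rose and 7 fell with RANKL in edgeR (1 and 8 at an unadjusted p under 0.05, and 3 and 8 in DESeq2 without offsets), and 15 rose and 11 fell with CSRM617, with medians of -0.07 and 0.04. Snrnp70, the U1 protein that SR tails contact, fell from 378 ± 56.6 to 240 ± 9.93 CPM with RANKL (-0.65 ± 0.10, adjusted p = 4.78e-05) and rose from 195 ± 4.27 to 300 ± 9.42 CPM with CSRM617 (0.62 ± 0.032, adjusted p = 4.25e-21), and with offsets by -0.38 and 0.13. The nonsense-mediated decay genes gave 0 rises and 3 falls (Smg6, Smg9, Upf1) of 10 with RANKL, and 7 rises and 0 falls with CSRM617. Both counts of 0 were also 0 at an unadjusted p under 0.05 in edgeR and in DESeq2 with adjustment, while with GC offsets 3 genes fell with RANKL, and 9 rose and 1 fell with CSRM617. Upf1, the helicase at the centre of that pathway, fell with RANKL by -0.35 ± 0.087 (adjusted p = 0.00318; -0.09 with offsets) and rose with CSRM617 by 0.73 ± 0.038 (adjusted p = 3.85e-21; 0.27 with offsets). These lists are described by their counts alone, beside the shares of all genes. Those were 28.7% higher and 28% lower with RANKL, and 35.2% and 36.2% with CSRM617. With GC offsets the shares were 26.9% and 26.5%, and 29.7% and 33.6%.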

How the data were processed

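Levels were measured in 12 libraries, made from 1 µg of RNA each with ribosomal RNA removed and read as pairs of 42 bp, per the labels' protocols. The authors deposited raw counts per gene symbol in 2 tables, 1 per comparison, and 2 normalized tables whose deposited values are on a log2 scale. The submitters' processing notes name STAR, mm10 (GRCm38), HTSeq 0.13.5 and DESeq2 1.34.0. Neither the annotation nor whether HTSeq counted by strand is stated in the sources used here.

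Members and lists were chosen with earlier results of these data known. Each comparison was tested on the counts of all genes in its 6 libraries with edgeR 4.0.16 in R 4.3.3 (quasi-likelihood, robust, TMM factors, filterByExpr), two-sided, with Benjamini-Hochberg adjusted p under 0.05. Errors of log2 changes are SE, and errors of levels are SD over 3 libraries. CPM values use TMM factors set within each table, and levels per kb divide them by union exon length. Levels and ratios per kb carry no GC offsets. GC offsets came from a loess curve (span 0.3) of log2 CPM on transcript GC in each library, centred on 0. Per-library values are given for the 4 largest rises and falls per comparison and for the paralog pairs, and the related lists are shown by their smallest p; 1 gene that this rule names is not reported here. Shared 42-base words were counted over GENCODE M21 transcripts, and 13 members share at least 10% of theirs. DESeq2 1.42.0, limma 3.58.1 on the log2 tables, other scalings, filters, a replicate block and leaving out each library were the alternatives. The edgeR fit was tested on simulated data. No columns were left out.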

Additional observations from a re-analysis of the deposited data

How the results depend on the processing

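DESeq2, RLE and upper-quartile factors, scaling without ribosomal RNA loci and mitochondrial genes, both filters, limma on the log2 tables and 1 fit of all 12 libraries gave 5 to 10 members higher and 7 to 9 lower with RANKL, and 10 higher and 12 to 17 lower with CSRM617. Over all genes these settings gave 3381 to 4412 higher and 3231 to 4325 lower of 12354 to 25466 with RANKL. With CSRM617 they gave 4329 to 5406 higher and 4120 to 5497 lower of 12644 to 26883. Among the members the sign changed under these settings only for values near 0 that had not passed: with RANKL, Hnrnpd was -0.0029 with upper-quartile factors and Srsf7 0.011 with the stricter filter, and with CSRM617, Hnrnpdl was 0.0094, Hnrnph3 0.034 and Hnrnpu 0.013 in the fit of all libraries. Leaving out 1 library at a time gave 4 to 11 members higher and 5 to 10 lower with RANKL, with the fewest rises without ENR control replicate 1, the most without ENR control replicate 2 and the fewest falls without RANKL replicate 2. The calls over all genes moved too, with 3423 higher and 3423 lower of 14033 without ENR control replicate 1. They were 4132 and 4068 of 13667 without ENR control replicate 2, and 3362 and 3287 of 13601 without RANKL replicate 2. With CSRM617, leaving out 1 library gave 10 to 12 members higher and 12 to 15 lower. Over all genes that gave 4714 to 5037 higher and 4781 to 5084 lower of 14330 to 14688. Members whose log2 change crossed 0 when a library was left out were, with RANKL, Hnrnpa1 (-0.031 to 0.041), Hnrnpd (-0.037 to 0.083), Hnrnpm (-0.020 to 0.16), Srsf11 (-0.17 to 0.010) and Srsf5 (-0.054 to 0.076), and, with CSRM617, Hnrnph3 (-0.089 to 0.013).

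GC offsets changed most. They gave 3 members higher and 11 lower with RANKL (26.9% and 26.5% of all genes). With CSRM617 they gave 17 members higher and 4 lower (29.7% and 33.6% of all genes). The cause was not tested. The sign turned with RANKL for Hnrnpa1 (-0.086), Hnrnpa2b1 (-0.048), Hnrnpc (-0.0765), Hnrnpd (-0.30), Hnrnpk (-0.030), Hnrnpl (0.14), Srsf1 (-0.045), Srsf10 (-0.075) and Srsf5 (-0.13). It turned with CSRM617 for Hnrnpa2b1 (0.24), Hnrnpa3 (0.29), Hnrnpc (0.082), Hnrnpd (0.39), Hnrnpdl (0.063), Hnrnph2 (0.14), Hnrnph3 (0.27), Hnrnpl (-0.24), Hnrnpr (0.035), Hnrnpu (0.54), Srsf3 (0.0325), Srsf7 (0.043) and Srsf9 (-0.016).

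Same-numbered libraries did not deviate together: the correlation of their deviations was -0.01 to 0.06, so the numbers were not used to pair them. A replicate block gave 8 members higher and 8 lower with RANKL, adding Hnrnpk and losing Hnrnph3, and 10 higher and 14 lower with CSRM617. Over all genes it gave 3893 and 3808 of 13570 with RANKL, and 4977 and 5118 of 14167 with CSRM617. The replicate block with GC offsets gave 3 members higher with RANKL (3682 of all genes). With CSRM617 it gave 17 members higher and 4 lower (4169 and 4730 of all genes). Its values turned sign for the genes named under GC offsets. With RANKL they were -0.085 for Hnrnpa1, -0.047 for Hnrnpa2b1, -0.0759 for Hnrnpc, -0.30 for Hnrnpd, -0.030 for Hnrnpk, 0.14 for Hnrnpl, -0.0445 for Srsf1, -0.075 for Srsf10 and -0.12 for Srsf5. With CSRM617 they were 0.24 for Hnrnpa2b1, 0.29 for Hnrnpa3, 0.081 for Hnrnpc, 0.39 for Hnrnpd, 0.065 for Hnrnpdl, 0.14 for Hnrnph2, 0.27 for Hnrnph3, -0.24 for Hnrnpl, 0.038 for Hnrnpr, 0.54 for Hnrnpu, 0.0326 for Srsf3, 0.044 for Srsf7 and -0.017 for Srsf9. The p-values measure the spread between differentiation experiments of a single line.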

Other observations

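The hnRNP proteins filed under other symbols and the other regulators of splicing were not described above. Over all genes, 28.7% were higher and 28% lower with RANKL, and 35.2% and 36.2% with CSRM617. With GC offsets these shares were 26.9% and 26.5%, and 29.7% and 33.6%. Of the 8 hnRNP proteins under other names, 2 rose and 2 fell with RANKL, and 3 rose and 4 fell with CSRM617. With GC offsets edgeR gave 0 rises, also at an unadjusted p under 0.05, and 2 falls with RANKL (DESeq2 without offsets gave 2 of each), and 3 rises and 3 falls with CSRM617. Cirbp, a cold-inducible RNA-binding protein, was at 59.9 ± 7.64 CPM in ENR control and 36.5 ± 0.797 CPM in RANKL (log2 change -0.71 ± 0.11 SE, edgeR adjusted p = 3.40e-05; -0.55 with GC offsets). Syncrip, the relative of Hnrnpr, rose with RANKL by 0.65 ± 0.11 (adjusted p = 0.000134) and fell with CSRM617 by -0.95 ± 0.060 (adjusted p = 1.16e-11), but was at 0.01 and 0.05 with GC offsets, without passing. Ptbp1, the repressor that binds pyrimidine tracts, rose with CSRM617 from 199 ± 2.05 to 282 ± 9.89 CPM (0.51 ± 0.033, adjusted p = 4.19e-18; 0.23 with offsets).

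Of the other splicing regulators, 15 of 22 rose and 5 fell with RANKL (28.7% and 28% of all genes), which became 7 and 5 with GC offsets (26.9% and 26.5%). With CSRM617 8 of 21 rose and 11 fell (35.2% and 36.2% of all genes), which became 7 and 10 (29.7% and 33.6%). The relatives of Ptbp1 fell with CSRM617 while Ptbp1 rose: Ptbp3 went from 352 ± 7.32 to 150 ± 9.07 CPM (log2 change -1.22 ± 0.035, adjusted p = 2.09e-30; -0.43 with offsets). Ptbp2, known from neurons and germ cells, went from 59.1 ± 3.65 to 21.8 ± 1.79 CPM (-1.43 ± 0.068, adjusted p = 1.04e-22; -1.05 with offsets). With RANKL Ptbp3 had risen by 0.67 ± 0.099 (adjusted p = 3.36e-05; 0.17 with offsets, not past the threshold) and Ptbp2 by 0.57 ± 0.11 (adjusted p = 0.000293; 0.35 with offsets). The difference between the genes was not tested. Matr3, a nuclear matrix protein that binds RNA with Ptbp1, rose with RANKL by 0.48 ± 0.086 (adjusted p = 0.000187; -0.05 with offsets) and fell with CSRM617 by -1.19 ± 0.055 (adjusted p = 3.77e-23; -0.35 with offsets).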
